A study of Mus musculus with 10 samples.

Results

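The 5 control embryos of this mouse study came from 2 litters, and the data of the 2 controls of litter 2 were set against those of the 3 controls of litter 1. They were grouped by their labels, which give condition, litter and embryo number in the sample name. They are 5 of the 10 embryos measured, and the comparison was chosen with earlier results of these data known. The study asked what loss of *Dot1l*, the gene of a histone methyltransferase, does to the developing spinal cord, by sequencing polyA RNA of the lumbar spinal cord of single embryos at embryonic stage E12.5. The dorsal root ganglia, which hold the sensory neurons, were left on the tissue. The strain label of all animals reads B6.Cg-E2f1Tg(Wnt1-cre)2Sor/J. Controls of litter 1 carried no Cre transgene and 2 floxed alleles of *Dot1l* (Dot1l fl/fl), and controls of litter 2 carried no Cre transgene and 1 floxed allele (Dot1l fl/+). The *Dot1l*-cKO embryos of the same litters, 3 of litter 1 and 2 of litter 2, were Wnt1cre2/+ and Dot1l fl/fl, with Cre under control of a Wnt1 transgene that is active mainly in the dorsal neural tube and the neural crest. All 10 embryos carry the same age label. Each litter stands for its mother, for the number of floxed alleles of its controls and for any separate handling, and these cannot be told apart.

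The embryonic spinal cord changes quickly with age. Progenitors around the central canal divide and give rise first to motor neurons and ventral interneurons, then to the late-born neurons of the dorsal horn, and afterwards to glia, so that cell cycle and progenitor transcripts become a smaller share of the RNA while those of synapses, neuropeptides and glia become a larger one. Red blood cells change in the same period: primitive cells from the yolk sac carry embryonic globins, and definitive cells from the fetal liver, which carry adult globins, replace them. The comparison described whether the controls of the 2 litters differed in the way that earlier and later stages differ.

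Total counts per control lay between 40949585 and 61194291, and no 2 embryos of a group looked like 1 library deposited again, since chi-square per gene ran from 9.31 to 26.2 over the 8 pairs. All levels are CPM, counts set to a common library total and to edgeR's TMM factors of the 10 embryos, in the order embryos 4, 5 and 9 of litter 1, then embryos 5 and 7 of litter 2. Differences are log2 fold changes, litter 2 minus litter 1, with their standard error (SE), and a gene was called when its adjusted p in edgeR's quasi-likelihood test was below 0.05. With 3 against 2 embryos, the p-values measure the spread between these embryos only. The labelled tissue was seen in its markers: the neuronal tubulin gene *Tubb3*, the progenitor gene *Sox2* and the lumbar gene *Hoxc10* were present in every control, as were ganglion genes, whose 33 listed members summed to between 1474 and 2416 CPM. In bulk tissue, fewer cells of a type and less RNA per cell cannot be told apart.

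The controls of the 2 litters differed widely. Of 19336 genes tested, 4728 were called (24.5%), 2243 of them higher in litter 2 (11.6%) and 2485 lower (12.9%), and 6994 had an unadjusted p below 0.05. The median difference over all genes was -0.01. Among the called genes, 694 differed by at least 1 on the log2 scale, 190 of them higher and 504 lower in litter 2. The counts moved with 1 embryo: without embryo 7 of litter 2, 1062 genes were called higher and 1425 lower. Scaling by library size alone instead of TMM gave 1598 genes higher and 3037 lower, so that the share called higher went from 47.4% to 34.5%, while the median difference of all genes moved by -0.06. In the gene lists that follow, 32 counts of called genes in 1 direction were between 1 and 4, and 22 of them moved by over 1.5 times when 1 control was left out.

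**Figure D1:**
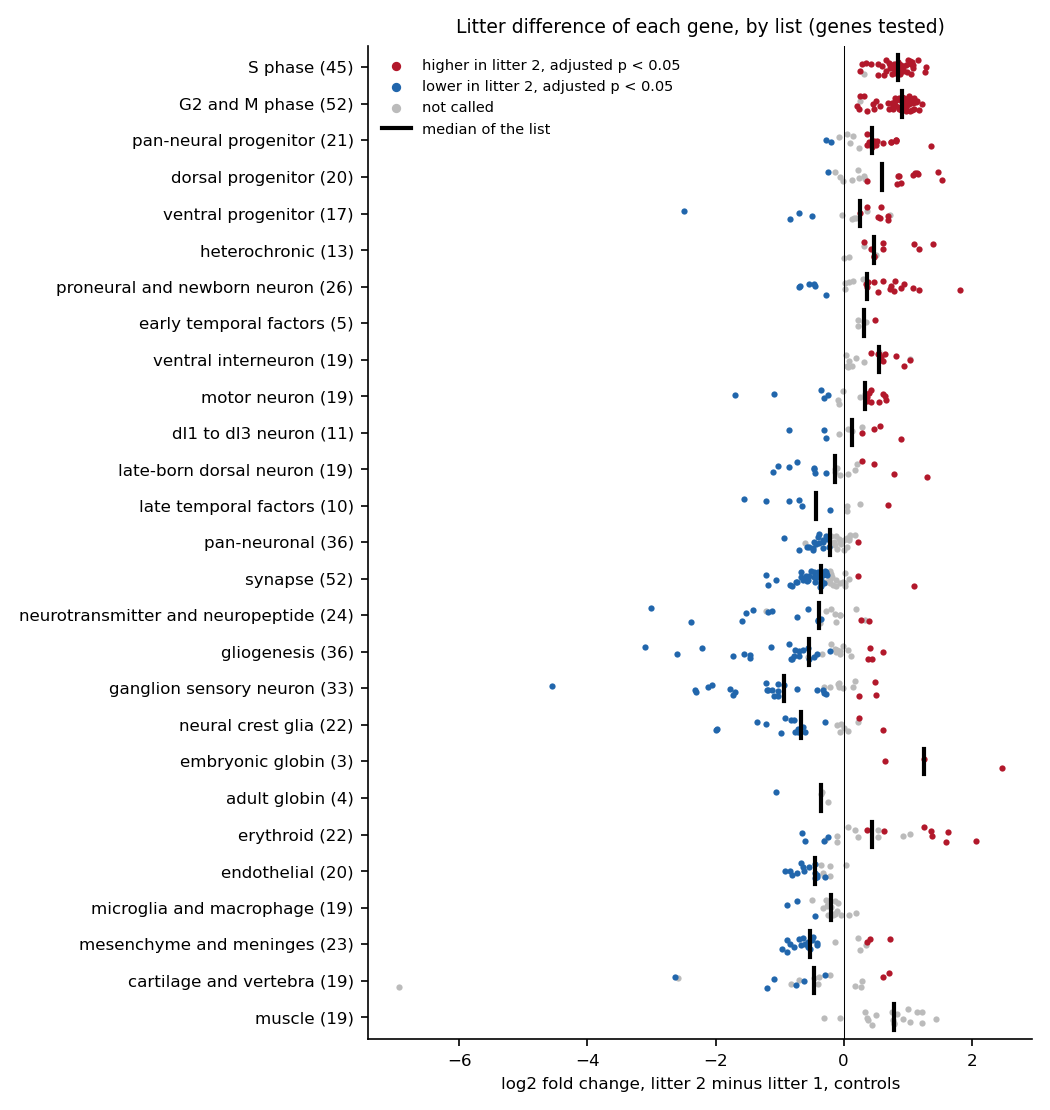
Each dot is the log2 fold change of 1 gene, litter 2 minus litter 1, in the 5 controls, arranged by gene list with the number of genes tested in brackets; red and blue dots passed an adjusted p of 0.05 (edgeR), grey dots did not, and the black bar is the median of the list. S phase and G2 and M phase genes lie to the right of 0 (medians 0.85 and 0.90), whereas synapse, gliogenesis and ganglion genes lie mostly to the left (medians -0.35, -0.54 and -0.93).

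Genes of dividing cells were higher in litter 2. Of the 45 S phase genes, 44 were called higher and none lower, with a median log2 difference of 0.85; of the 52 G2 and M phase genes, 51 were called higher and none lower, with a median of 0.90. These counts stand against the 11.6% of all tested genes that were called higher. The exceptions were *Fen1*, a flap endonuclease of DNA replication (0.32, adjusted p = 0.34), and *Gas2l3* (0.26, adjusted p = 0.0521). *Top2a*, the topoisomerase that untangles chromosomes before mitosis, had 224, 241 and 257 CPM in litter 1 and 516 and 561 CPM in litter 2. Both embryos of litter 2 were far above all 3 of litter 1, by 1.17 on the log2 scale (SE 0.08, edgeR adjusted p = 3.7e-06). *Rrm2*, a subunit of the enzyme that makes deoxynucleotides, had 66.0, 78.2 and 73.9 CPM against 168 and 185 CPM, a difference of 1.29 (SE 0.08, edgeR adjusted p = 3.7e-06), the largest in the S phase list. *Exo1* and *Cdc6*, which act in DNA repair and in the licensing of replication origins, were higher by 1.27 and 1.16, and *Ect2* and *Ndc80*, which act in cytokinesis and at the kinetochore, by 1.22 and 1.14.

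The promoters of 2 of these genes are printed here because the whole lists moved together and cell cycle promoters share known elements. The stretches are from RefSeq (GRCm38.p6) and run from 250 bases before to 50 bases after the start of the gene. For *Top2a*, on the minus strand at chr11:99024140-99024439, capitals mark the CCAAT box (CCAAT, 6 matches on either strand) and the cell cycle homology region CHR (TTTGAA, 2 matches on either strand). For *Cdc6*, on the plus strand at chr11:98907901-98908200, capitals mark the E2F element TTCCCGC, with 1 match on the opposite strand.
Top2a: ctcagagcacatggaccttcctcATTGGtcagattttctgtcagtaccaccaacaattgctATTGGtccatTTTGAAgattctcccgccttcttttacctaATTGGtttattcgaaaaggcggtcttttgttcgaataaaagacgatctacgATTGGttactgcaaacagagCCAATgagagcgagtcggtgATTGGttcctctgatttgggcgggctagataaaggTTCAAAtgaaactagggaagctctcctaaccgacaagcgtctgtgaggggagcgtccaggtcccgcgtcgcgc
Cdc6: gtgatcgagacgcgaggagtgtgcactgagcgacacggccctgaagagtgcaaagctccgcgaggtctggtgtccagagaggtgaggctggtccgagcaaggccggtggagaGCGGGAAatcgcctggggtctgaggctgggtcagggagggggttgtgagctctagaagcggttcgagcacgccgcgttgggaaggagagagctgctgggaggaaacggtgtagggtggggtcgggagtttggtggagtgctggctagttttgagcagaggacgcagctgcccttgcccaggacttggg
Of the 52 genes of the G2 and M phase list, 46 had a promoter in the table. CHR was in 32 of these (69.6%) and in 18.1% of all 27025 promoters, the CCAAT box was in 35 (76.1%) and in 37.9% of all, and the E2F element was in 0 and in 4.66% of all. For the S phase list only 33 of 45 genes (73.3%) had a promoter, under the 80% needed, so no share is given. A match is a description of letters and not a measured binding site.

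Progenitor genes were also mostly higher in litter 2. In the pan-neural progenitor list, 14 of 21 were called higher and 2 lower (median 0.44), and in the dorsal progenitor list 11 of 20 were called higher and 1 lower (median 0.60, or 0.36 with all 10 embryos in the fit). *Pax3*, a transcription factor of dorsal progenitors, had 43.8, 49.9 and 47.7 CPM in litter 1 and 80.9 and 88.4 CPM in litter 2, 1.80-fold higher without overlap (log2 0.85, SE 0.08, edgeR adjusted p = 1.7e-05). *Sox2*, a factor that keeps neural progenitors undifferentiated, had 101, 112 and 113 CPM against 138 and 165 CPM (0.48, SE 0.08, edgeR adjusted p = 0.00175). The gap in *Sox2* was smaller than in *Pax3*, and the groups again did not overlap. Its relative *Sox3* differed by 1.37, the intermediate filament gene *Nes* by 0.82 and the chromatin gene *Hmgb2* by 0.82. Dorsal patterning genes went the same way: *Gsx2* was higher by 1.54, *Msx2*, a target of BMP signals at the roof plate, by 1.48, and the roof plate ligand *Wnt3a* by 1.16. The progenitor genes lower in litter 2 were *Ptn* (-0.27), *Ttyh1* (-0.19) and the dorsal factor *Zic2* (-0.24), and each of these 3 calls was lost under another setting.

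Ventral progenitor genes were divided. Of 17, 7 were called higher and 4 lower (median 0.26). Without embryo 7 of litter 2 the number higher was 2, and without embryo 4 of litter 1 it was 4. The ventral domain factors *Sp8* and *Irx5* and the Hedgehog effector *Gli2* were higher by 0.70, 0.69 and 0.58. *Olig1*, a factor of the motor neuron and oligodendrocyte progenitor domain, had 6.89, 8.44 and 5.14 CPM in litter 1 and 0.995 and 1.44 CPM in litter 2. It was 5.62-fold lower (log2 -2.49, SE 0.25, edgeR adjusted p = 4.1e-05), and *Gli1*, a target gene of Hedgehog signals, was lower by 0.69 on the log2 scale (log2 fold change -0.69). *Prdm12*, a gene of a ventral progenitor domain that sensory neurons of the ganglia also use, was lower as well (-0.84).

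Genes of the heterochronic list, which mark young embryonic tissue in general, were higher or not called. Of 13, 9 were called higher and 0 lower (median 0.48), and 12 did not overlap between the litters, beside 51.8% of all tested genes that did not overlap in either direction. *Lin28a*, an RNA-binding protein that blocks maturation of let-7 microRNAs, had 1.40, 1.81 and 1.69 CPM against 3.07 and 5.49 CPM, 2.62-fold higher (edgeR adjusted p = 0.00194). *Hmga2*, a chromatin protein and let-7 target, had 26.1, 29.8 and 26.6 CPM against 56.6 and 68.0 CPM (log2 1.18, SE 0.09, edgeR adjusted p = 9.6e-06). Both were above the whole range of litter 1 in each embryo of litter 2. *Igf2bp1*, *Igf2bp2* and *Igf2bp3*, RNA-binding proteins of embryonic tissue, were higher by 1.10, 0.48 and 0.62, *Sall4* by 0.62, *Hmga1* by 0.48, *Nr6a1* by 0.43 and *Lin28b* by 0.31. Not called were *Trim71* (0.51), *Dnmt3b* (0.32), *Arid3a* (0.08) and *Mycn* (0.01). Without embryo 7 of litter 2, 5 of the 13 were called.

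**Figure D2:**
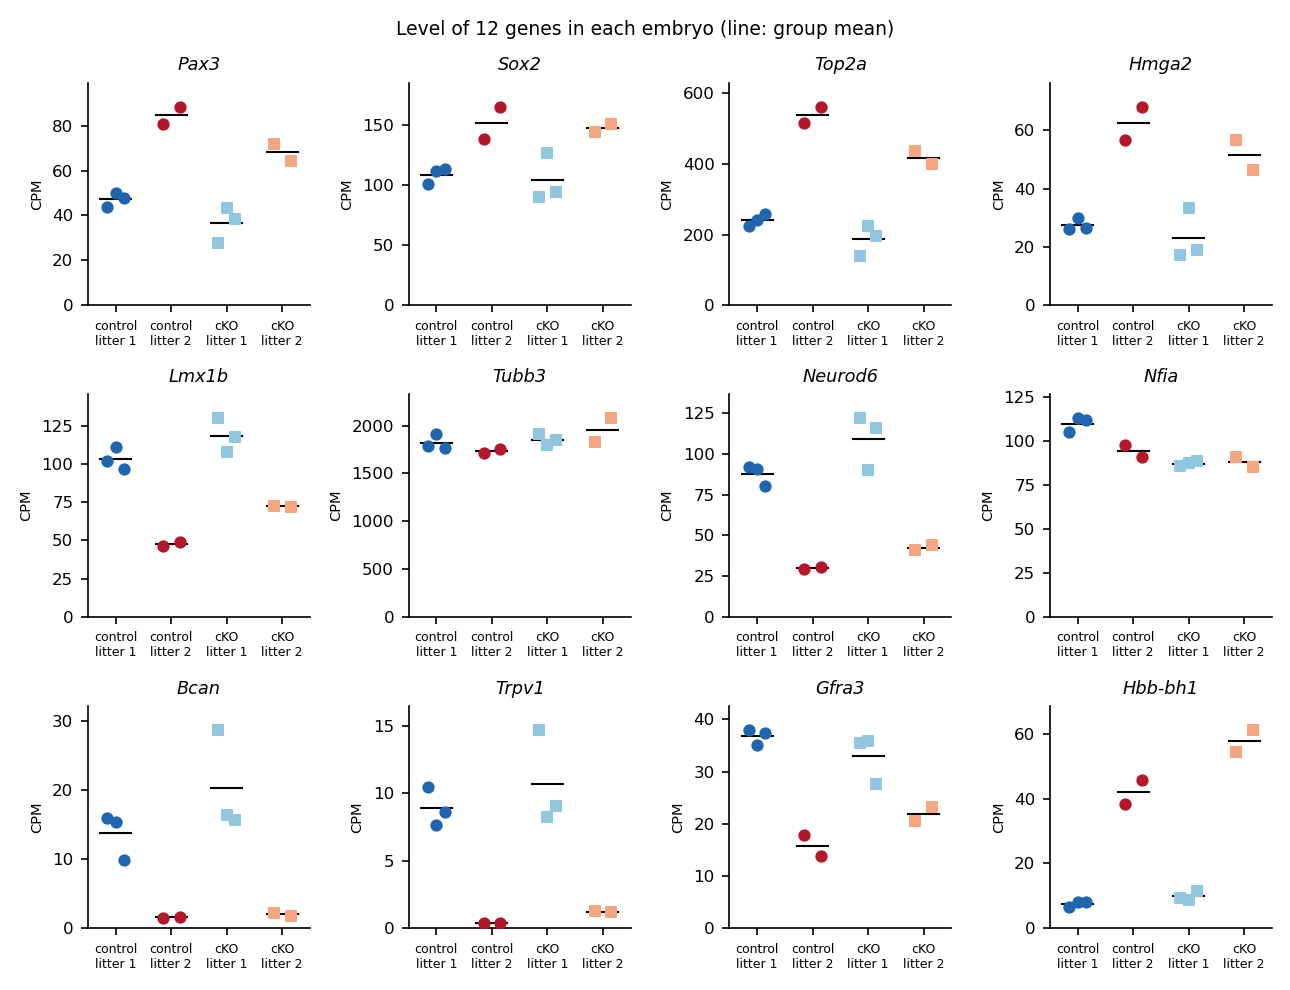
CPM of 12 genes in each of the 10 embryos, with the axis starting at 0, controls as circles, *Dot1l*-cKO embryos as squares and a line at each group mean. In controls *Pax3*, *Sox2*, *Top2a*, *Hmga2* and *Hbb-bh1* are higher in litter 2, *Lmx1b*, *Neurod6*, *Nfia*, *Bcan*, *Trpv1* and *Gfra3* are lower, and *Tubb3* lies between 1719 and 1912 CPM.

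Among genes of cells about to leave the cycle, 15 of 26 proneural and newborn neuron genes were called higher in litter 2 and 6 lower (median 0.37). The neuronal differentiation factor *Neurod4* was higher by 1.18, and *Atoh1*, which specifies the dorsalmost interneurons, by 0.95, both without overlap. The Notch ligand genes *Dll4* and *Jag2* were lower (-0.70 and -0.68), as was *Ebf1*, a factor of differentiating neurons (-0.54).

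Factors that mark when a neuron was born were given in an early and a late list. All 5 early temporal genes had a positive difference, but only *Onecut3* was called (0.49, edgeR adjusted p = 0.0227); *Onecut1*, *Onecut2*, *Pou2f2* and *Pou2f1* had 0.35, 0.31, 0.22 and 0.23. Without embryo 9 of litter 1, 5 were called higher, and without any 1 of the other 4 controls 0 were called by edgeR. Of the 10 late temporal genes, 6 were called lower in litter 2 and 1 higher (median -0.43). *Neurod6* had 92.1, 90.8 and 80.2 CPM in litter 1 and 29.1 and 30.9 CPM in litter 2, 2.92-fold lower (SE 0.08, edgeR adjusted p = 1.3e-06), and its relative *Neurod2* was lower as well (-1.22). The 4 nuclear factor I genes, which act in late-born neurons and in the switch to glia, were all lower: *Nfix* by 0.85 (-0.85), *Nfib* (-0.69), *Nfic* (-0.65) and *Nfia* (-0.22). *Nfia* itself had 105, 113 and 112 CPM against 97.6 and 90.7 CPM, a narrow gap without overlap (SE 0.07, edgeR adjusted p = 0.0334). The exception was *Zfhx4*, higher by 0.69, and *Zfhx3*, *Zfhx2* and *Tcf4* were not called (0.25, 0.05 and 0.06).

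Of 19 ventral interneuron genes, 10 were called higher in litter 2 and 0 lower (median 0.55), among them *En1* of V1 neurons (1.03), *Sim1* of V3 neurons (0.81) and *Lhx4* (0.65). Without embryo 7 of litter 2, 5 were called higher. Of 11 genes of the dorsal classes dI1 to dI3, 4 were called higher and 3 lower, with *Lhx9* and *Barhl2* of dI1 neurons higher by 0.89 and 0.57, *Lhx1* by 0.47, and *Tlx3*, *Isl1* and *Pou4f1* lower (-0.86, -0.31 and -0.28). The last 3 are also expressed in sensory neurons of the ganglia, and *Tlx3* was not called with all 10 embryos in the fit (edgeR adjusted p = 0.114).

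Of 19 genes of late-born dorsal neurons, 8 were called lower and 4 higher (median -0.14, but 0.09 after correction for GC content). *Lmx1b*, a factor of excitatory dorsal horn neurons, had 102, 111 and 97.0 CPM in litter 1 and 46.2 and 49.2 CPM in litter 2. It was 2.16-fold lower, with a wide gap between the litters (log2 -1.11, SE 0.08, edgeR adjusted p = 6.0e-06). *Prrxl1* (also known as Drgx), a partner factor in the same neurons and in sensory neurons, was lower as well (-1.02). Higher were *Prdm13*, which acts in progenitors and newborn inhibitory neurons of the dorsal horn (1.30), *Gbx2* (0.79) and *Lhx1* (0.47). Motor neuron genes were mixed, with 9 of 19 higher and 5 lower (median 0.34, or 0.19 without embryo 5 of litter 2). *Mnx1* was higher by 0.66 and *Pou3f1* by 0.61, whereas *Isl2* was lower (-1.08) and *Prph*, a neurofilament gene of motor and sensory neurons, had 252, 263 and 250 CPM against 76.4 and 80.5 CPM (-1.70, SE 0.07, edgeR adjusted p = 1.6e-07). Without embryo 4 of litter 1, 5 motor neuron genes were called higher and 3 lower, and without embryo 7 of litter 2, 2 were called lower.

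Among genes of neurons in general, *Tubb3* had 1788, 1912 and 1763 CPM in litter 1 and 1719 and 1761 CPM in litter 2, and was not called, although the litters did not overlap (-0.06, SE 0.07, edgeR adjusted p = 0.575). Of 36 pan-neuronal genes, 17 were called lower and 1 higher (median -0.21). The neurofilament gene *Nefh* (-0.93), the neuronal nuclear antigen gene *Rbfox3* (-0.69) and *Myt1l* (-0.57) were lower, and *Myt1* was higher (0.22). Without embryo 5 of litter 2, 11 were called lower. In the synapse list 34 of 52 were called lower and 2 higher (median -0.35), beside 12.9% of all genes called lower. The NMDA receptor genes *Grin3a* and *Grin1* were lower by 1.22 and 1.18 on the log2 scale (log2 fold changes -1.22 and -1.18), and the vesicle gene *Sv2b* was lower (-1.05). The 2 synapse genes that were higher were the glycine receptor gene *Glra1* (1.10) and the scaffold gene *Homer1* (0.23).

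Of 24 neurotransmitter and neuropeptide genes, 12 were called lower and 2 higher (median -0.38). *Gal*, the gene of the neuropeptide galanin, had 30.0, 28.2 and 30.3 CPM in litter 1 and 3.28 and 4.05 CPM in litter 2. It was 8.08-fold lower, far outside the spread of either litter (log2 -3.01, SE 0.12, edgeR adjusted p = 1.6e-07). The opioid peptide gene *Penk* and the calcium buffer gene *Calb2* were lower too (-1.59 and -1.53). Higher were *Slc18a3*, the vesicular transporter of acetylcholine (0.39), and *Gad2*, an enzyme of GABA synthesis (0.27).

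Genes of the glial programme were lower in litter 2 in most cases. Of 36 gliogenesis genes, 21 were called lower and 4 higher (median -0.54). *Bcan*, the proteoglycan brevican, had 15.9, 15.4 and 9.88 CPM in litter 1 and 1.51 and 1.69 CPM in litter 2, 8.56-fold lower (log2 -3.10, SE 0.23, edgeR adjusted p = 7.2e-06). The astrocyte genes *Hepacam*, an adhesion protein, and *Aldoc*, a glycolytic enzyme, were lower as well (-2.60 and -2.21). In these 3 genes embryo 9 of litter 1 was the lowest of its litter and still above both embryos of litter 2. The genes that were higher include *Sox9* (0.61), *Lfng* (0.44) and *Fgfr3* (0.41), all of which progenitors already express before glia form.

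Genes of the dorsal root ganglia were the lowest of the large lists. Of 33 sensory neuron genes, 22 were called lower and 3 higher (median -0.93), and their sum was between 2109 and 2416 CPM in litter 1 and between 1474 and 1555 CPM in litter 2. *Trpv1*, the heat and capsaicin channel of pain neurons, had 10.5, 7.64 and 8.62 CPM against 0.358 and 0.405 CPM, 23.3-fold lower (log2 -4.55, SE 0.24, edgeR adjusted p = 8.5e-07). *Avil*, an actin-binding protein of sensory neurons, had 35.4, 30.6 and 32.3 CPM against 6.57 and 6.50 CPM (-2.32, SE 0.10, edgeR adjusted p = 2.9e-07), and *Insrr* was lower by a similar amount (-2.30). Higher were *Dcc* (0.50), *Eya1* (0.49) and *Shox2* (0.24). Of 22 neural crest glia genes, 14 were called lower and 2 higher (median -0.67): *Gfra3* and the myelin gene *Mal* were lower (-1.21 and -0.91), whereas *Pou3f1* and *Tfap2b* were higher (0.61 and 0.24). Ganglia were dissected with the cord, and how much ganglion each sample holds was not tested.

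The tissues around the cord were described by 5 lists. Of 20 endothelial genes, 14 were called lower and 0 higher (median -0.45), with the tight junction gene *Cldn5* and the factors *Sox17* and *Sox18* lower (-0.91, -0.84 and -0.81); without embryo 7 of litter 2, 7 were called lower. Of 23 genes of mesenchyme and meninges, 16 were called lower and 3 higher (median -0.52), and 10 were called lower without embryo 7 of litter 2. The collagen gene *Col1a1* had 382, 333 and 293 CPM against 200 and 164 CPM (-0.88), *Postn* and *Col6a3* were lower (-0.96 and -0.88), and *Crabp2*, *Prrx1* and *Foxp1* were higher (0.73, 0.41 and 0.36). The summed level of the mesenchyme list was between 2382 and 2971 CPM in litter 1 and between 1741 and 2002 CPM in litter 2. Of 19 cartilage genes, 6 were called lower and 2 higher (median -0.47); *Matn4*, *Col9a3* and *Col9a2* were lower (-2.64, -1.19 and -1.09), *Sox6* and *Sox9* higher (0.71 and 0.61), and 10 were lower without embryo 9 of litter 1. Of 19 microglia and macrophage genes, 3 were called lower, *F13a1* (-0.88), *Mrc1* (-0.73) and *C1qc* (-0.45), which is 15.8% beside 12.9% of all genes. That number was 7 without embryo 5 of litter 2 and 1 without embryo 7. None of 19 muscle genes was called by edgeR, whereas DESeq2 called 2 higher, limma-voom 3, the other legacy setting of edgeR 3, GC correction 2 with 1 lower, library size alone 1 lower, and no filter 12 higher and 1 lower. Their sum was 211, 125 and 42.0 CPM in litter 1 and 193 and 191 CPM in litter 2, so that embryo 9 of litter 1 stood apart, and 7 were called higher without embryo 4 of litter 1. The part of such adherent tissue in the other differences was not tested.

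Red blood cell genes gave a readout outside the nervous system. Globin genes are printed here by role. The embryonic beta-like gene *Hbb-bh1* had 6.49, 8.21 and 8.10 CPM in litter 1 and 38.4 and 45.7 CPM in litter 2, 5.55-fold higher (log2 2.47, SE 0.12, edgeR adjusted p = 3.2e-07). The embryonic genes *Hba-x* (91.4, 86.1 and 104 against 221 and 225 CPM) and *Hbb-y* (634, 588 and 630 against 925 and 1001 CPM) were higher by 1.25 and 0.65 (SE 0.08 and 0.07, edgeR adjusted p = 3.7e-06 and 7.6e-05). All 3 embryonic genes were thus higher in both embryos of litter 2. The adult gene *Hbb-bs* went the other way, with 119, 105 and 109 CPM against 42.3 and 64.3 CPM (-1.06, SE 0.14, edgeR adjusted p = 2.5e-04). *Hbb-bt*, *Hba-a1* and *Hba-a2* had -0.36, -0.25 and -0.34 (edgeR adjusted p = 0.05, 0.162 and 0.0655) and were at the threshold or short of it. Of the 4 adult genes, 1 was thus called lower by edgeR, 3 by DESeq2, 2 by limma-voom, 3 with library size alone and 4 with no filter on low counts. The adult genes come in near-identical copies, so how reads were divided among them is uncertain.

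The ratio of embryonic to adult counts within the same embryo does not depend on how much blood the sample holds. For the beta-like genes it was 3.71, 4.05 and 3.95 in litter 1 and 12.6 and 9.76 in litter 2, a log2 difference of 1.51. For the alpha-like genes it was 1.05, 0.958 and 1.0 in litter 1 and 3.02 and 2.78 in litter 2, a log2 difference of 1.53. The litters did not overlap in either ratio; an exact permutation test (two-sided) gave p = 0.2 for each, the smallest that 3 against 2 embryos allow. In the *Dot1l*-cKO embryos the same 2 differences were 1.37 and 0.97, also without overlap. The adult genes themselves were not lower as a list there, with a median of 0.33 against -0.35 in controls, 1 of 4 called higher (*Hba-a1*, 0.83, edgeR adjusted p = 0.0483) and 1 lower (*Hbb-bs*, -0.51). Of 22 other erythroid genes, 8 were called higher and 4 lower (median 0.45, or 0.22 over genes with at least 10 counts in every control), among them the anion exchanger gene *Slc4a1* (1.26) and *Trim10* (1.38) higher, and *Sptb* (-0.65) and *Ank1* (-0.30), which neurons also express, lower.

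**Figure D3:**
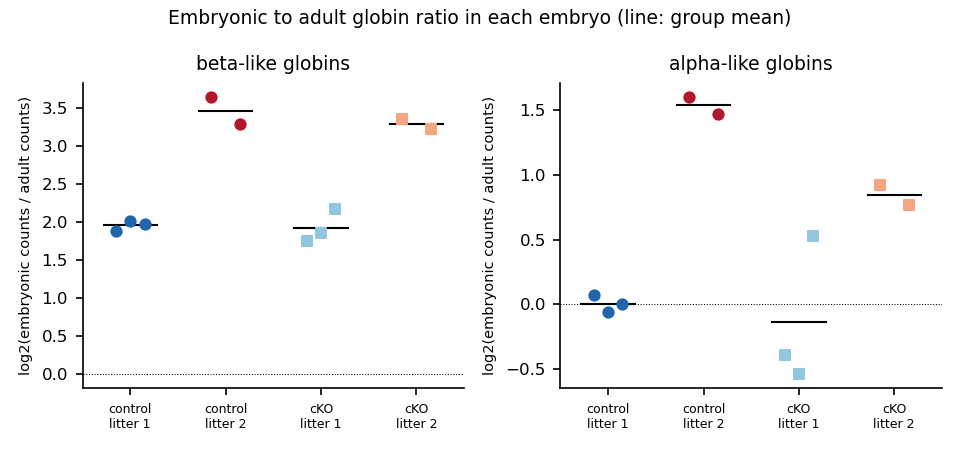
Log2 ratio of summed embryonic to summed adult globin counts in each embryo, for beta-like genes (left) and alpha-like genes (right), with a line at each group mean; the dotted line marks equal counts. Both controls of litter 2 lie above all 3 of litter 1 in each panel, by 1.51 and 1.53 on average.

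The promoters of *Hbb-y* and *Hbb-bs* are given because these neighbours of the beta-globin cluster on chromosome 7 moved in opposite directions. Both are on the minus strand (RefSeq, GRCm38.p6), at chr7:103853158-103853457 and chr7:103827879-103828178, and capitals mark the CACCC box (CACCC, searched on both strands) and the CCAAT box (CCAAT, both strands). Each holds 1 match of either motif, in the same order, and 56.7% of all promoters hold CACCC.
Hbb-y: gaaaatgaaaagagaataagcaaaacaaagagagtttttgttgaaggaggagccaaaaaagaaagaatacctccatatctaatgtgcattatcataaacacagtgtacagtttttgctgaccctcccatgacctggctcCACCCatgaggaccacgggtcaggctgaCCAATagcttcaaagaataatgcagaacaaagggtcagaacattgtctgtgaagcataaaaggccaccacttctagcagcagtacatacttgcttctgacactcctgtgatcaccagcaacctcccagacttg
Hbb-bs: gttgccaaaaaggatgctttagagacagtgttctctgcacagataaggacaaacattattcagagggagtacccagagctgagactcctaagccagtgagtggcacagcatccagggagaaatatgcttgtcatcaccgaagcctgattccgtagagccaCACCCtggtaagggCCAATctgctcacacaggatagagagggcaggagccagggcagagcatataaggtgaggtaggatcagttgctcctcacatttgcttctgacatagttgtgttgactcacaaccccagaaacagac

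Genes that mark position along the body were checked because the level of the cut could differ between dissections. Of 14 Hox genes of groups 4 to 8, 7 were called higher and 1 lower (median 0.31), with *Hoxc4*, *Hoxc6* and *Hoxc5* higher (0.85, 0.83 and 0.82) and *Hoxb8* lower (-0.52), and without embryo 5 of litter 2, 4 were higher. Of 10 lumbar Hox genes of groups 9 to 11, 5 were called higher and 0 lower (median 0.25), among them *Hoxc9*, *Hoxc10* and *Hoxa9* (0.43, 0.39 and 0.37). That number was 2 without embryo 5 of litter 2 and 3 without embryo 4 of litter 1. The most posterior genes, of groups 12 and 13, were uneven within litter 2. *Hoxb13* had 9.49, 14.2 and 6.07 CPM in litter 1, and 0 and 5.87 CPM in litter 2, and *Hoxc13* had 34.5, 40.2 and 45.3 CPM against 8.46 and 31.7 CPM. Of these 6 genes, *Hoxa13* and *Hoxc12* were called lower (-1.90 and -0.80, neither called with all 10 embryos in the fit), and *Hoxb13*, *Hoxc13*, *Hoxd12* and *Hoxd13* were not called by edgeR (-1.81, -1.01, 0.06 and 0.51). The number called lower was 1 by DESeq2, 3 with library size alone, and 4 by limma-voom or with no filter on low counts. Embryo 5 of litter 2 had the lowest value of the 5 controls in each of these genes but *Hoxd13*, and the part of dissection level in the other differences was not tested.

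Across all genes, the 10 with the largest difference in each direction, among those called without overlap and with an average log2 CPM not under 1, included 2 predicted genes higher and 1 clone-named gene lower. The genes higher in litter 2 included *Hbb-bh1*, the hindbrain and early neural plate gene *Hoxb1* (1.84), the deubiquitinase gene *Usp44* (1.77), the muscle gene *Smyd1* (1.57, not called by DESeq2), the carbonic anhydrase gene *Car14* (1.55), *Gsx2* and *Msx2*. Those lower were *mt-Nd3*, *Trpv1*, the lipid transporter gene *Abca8a* (-3.95), *Entpd2*, an ectonucleotidase of glia (-3.92), *Bcan*, *Gal*, the collagen gene *Col28a1* (-2.97), the X-linked gene *Xlr3b* (-2.79) and *Cemip* (-2.71).

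The *Dot1l*-cKO embryos of the same litters, which share no embryo with the control comparison, were compared in the same way. Between the 2 of litter 2 and the 3 of litter 1, 3661 of 19663 genes were called (18.6%), 1753 higher and 1908 lower. Of the 4708 control calls that were tested there, 4464 (94.8%) had the same direction, and 2522 were called in the same direction in both, which is 53.3% of the control calls and 68.9% of the *Dot1l*-cKO calls. In 4 genes the 2 comparisons called opposite directions. The share with the same direction among all tested genes was not counted, and both comparisons rest on the same 2 litters. The *Dot1l*-cKO counts rested on single embryos: without embryo 4 of litter 2 they fell to 171 higher and 177 lower, without embryo 6 of litter 2 to 549 and 622, and without embryo 2 of litter 1 to 812 and 905.

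The list medians were close in some lists and apart in others. The medians in controls and in *Dot1l*-cKO were 0.85 and 0.82 for S phase, 0.90 and 1.0 for G2 and M phase, 0.44 and 0.49 for pan-neural progenitors, -0.35 and -0.45 for synapse, and -0.54 and -0.41 for gliogenesis. They were 0.60 and 0.90 for dorsal progenitors, 0.37 and 0.67 for proneural and newborn neurons, -0.43 and 0.01 for late temporal factors, and -0.14 and 0.04 for late-born dorsal neurons. They were -0.93 and -0.26 for ganglion sensory neurons, -0.67 and -0.19 for neural crest glia, -0.45 and -0.01 for endothelium, and -0.52 and 0.08 for mesenchyme and meninges. The interaction test of each gene, over 20446 genes in all 10 embryos, called 2 genes (0.00978%), and 1646 had an unadjusted p below 0.05; DESeq2 called 94. Without embryo 3 of the *Dot1l*-cKO group of litter 1, edgeR called 4 higher and 91 lower. No gene of these 13 lists was among the 2 edgeR calls. The test is one of single genes and cannot decide whether a list as a whole differed between the conditions, which was not tested.

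**Figure D4:**
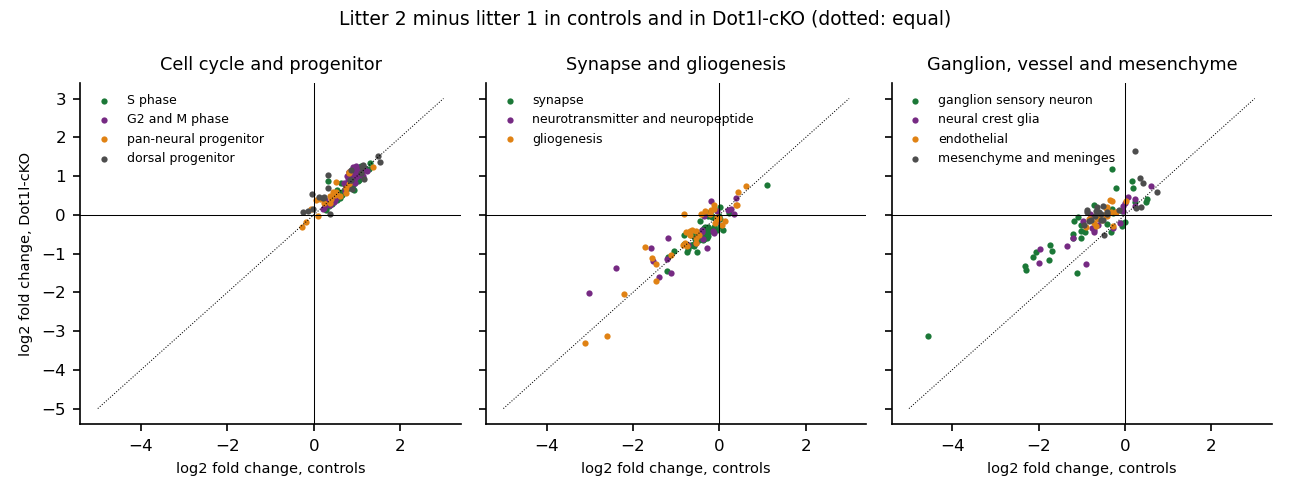
Log2 fold change, litter 2 minus litter 1, of listed genes in controls (horizontal) and in *Dot1l*-cKO (vertical), with a dotted line where both are equal. Cell cycle genes lie in the upper right, most progenitor genes do as well with a few such as *Ptn* (-0.27 and -0.31) to the left of 0, and ganglion, endothelial and mesenchyme genes lie mostly to the left of 0 in controls and nearer to 0 in *Dot1l*-cKO (median -0.93 against -0.26 for ganglion genes).

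The 2 interaction calls were *Htr3a*, a serotonin receptor channel gene, and *Xist*, the RNA that silences 1 X chromosome in females. *Htr3a* had 7.51, 6.65 and 7.20 CPM in controls of litter 1 and 1.21 and 1.09 CPM in controls of litter 2 (-2.62), and its litter difference in *Dot1l*-cKO was smaller (-0.95), an interaction of -1.67 (edgeR adjusted p = 0.0227). Leaving out any 1 of 8 of the 10 embryos left no gene with a negative interaction called by edgeR. *Xist* lay between 568 and 890 CPM in all 5 controls and between 499 and 596 CPM in *Dot1l*-cKO of litter 1, but at 6.00 and 6.80 CPM in *Dot1l*-cKO of litter 2. The litter contrast is therefore one between embryos of like *Xist* level in controls, but in *Dot1l*-cKO it runs together with sex.

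The 4 Y-linked genes *Ddx3y*, *Eif2s3y*, *Kdm5d* and *Uty*, described after their values were seen, had 0 counts in the 3 controls of litter 1 and summed to 55 and 46 counts in the 2 controls of litter 2 (1.09 and 1.16 CPM). This is at least 15.9-fold higher than 3 counts in a library of litter 1, and 0.667% and 0.708% of the mean level of the 2 *Dot1l*-cKO embryos of litter 2, which had 9755 and 9388 counts. A similar trace, 67 counts, was in embryo 7 of the *Dot1l*-cKO group of litter 1. The source of these reads was not tested.

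*Dot1l* itself (chr10:80755206-80795461, GRCm38) was not called: it had 87.5, 94.2 and 107 CPM in litter 1, with 2 floxed alleles, and 90.9 and 89.8 CPM in litter 2, with 1 floxed allele (-0.09, SE 0.08, edgeR adjusted p = 0.482). Genes near it were counted too. Within 5 Mb, 49 of 239 tested genes were called (20.5%), within 10 Mb 68 of 297 (22.9%), on the rest of the chromosome 161 of 628 (25.6%), and over all genes 24.5%. Of 7 genes of the Dot1l complex, *Aff1*, *Mllt3* and *Mllt10* were higher (0.41, 0.26 and 0.25) and *Mllt6* lower (-0.26).

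A mitochondrial gene and its nuclear copy had the largest differences of the called genes named by size, and they are described because of their values. *mt-Nd3* (chrM:9459-9806), a subunit of respiratory complex I, had 3.21, 3.85 and 4.34 CPM in controls of litter 1 and 0.0796 and 0.177 CPM in controls of litter 2 (-4.91, edgeR adjusted p = 5.9e-06). *Gm28438* (chr1:24612775-24613119, minus strand), an unprocessed pseudogene that copies it, had 0.105, 0.367 and 0.0491 CPM against 7.64 and 6.83 CPM (5.50, edgeR adjusted p = 6.2e-06). As counts, *mt-Nd3* held between 91.3% and 98.9% of the reads of the pair in litter 1, and 1.03% and 2.53% in litter 2. The *Dot1l*-cKO embryos had the same split, with 96.4%, 97.1% and 97.4% in litter 1 and 0.579% and 1.14% in litter 2. Over the 345 bases that both reference transcripts (GENCODE M21, GRCm38) share, they differ at 1 base, T3C, counted from 1 at the 5′ end of the transcript with the base of *mt-Nd3* first. The first 60 bases of each show this position in capitals.
mt-Nd3: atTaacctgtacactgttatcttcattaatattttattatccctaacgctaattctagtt
Gm28438: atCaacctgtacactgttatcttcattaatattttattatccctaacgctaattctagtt
A read that lies wholly within the shared bases and does not cover this position matches both copies alike, and reads were not analysed here. The other 7 mitochondrial protein genes with a mean log2 CPM of at least 1 differed by between -0.08 and 0.08 and none was called by edgeR, and mitochondrial genes took 0.993% to 1.24% of the counts of every embryo. The low transfer RNA genes next to it, *mt-Tg* and *mt-Tr*, were lower in litter 2 as well, at 0 or 0.0199 CPM. The sequence that the embryos carry at this position was not tested.

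**Figure D5:**
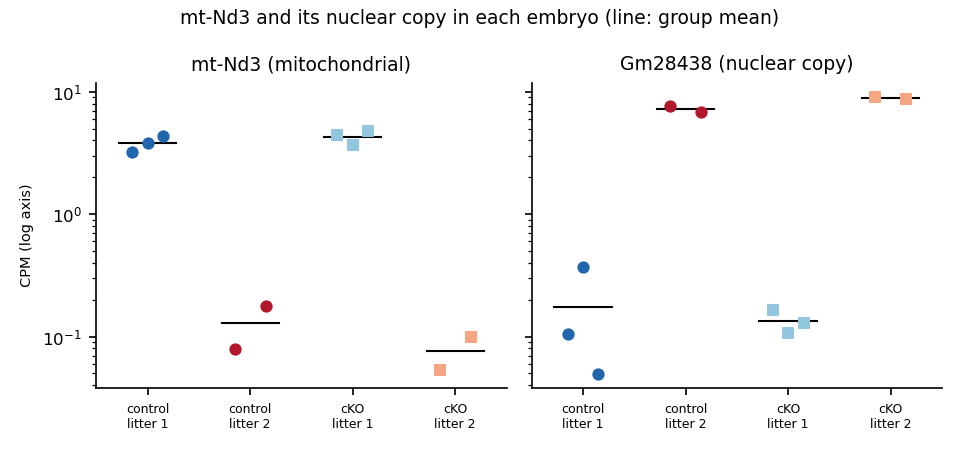
CPM on a log axis of *mt-Nd3* (left) and of its nuclear copy *Gm28438* (right) in each of the 10 embryos, with a line at each group mean. In litter 1 *mt-Nd3* is above 3 CPM and *Gm28438* below 0.4 CPM in every embryo, and in litter 2 the order is turned around.

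Lists that follow handling and metabolism held called genes in both directions, beside 24.5% of all genes called. Of 21 handling response genes, 2 were called higher (*Btg2* 0.74, *Hsp90aa1* 0.27) and 3 lower, among them *Egr1* (-0.95) and *Nr4a1* (-0.56), with a median of -0.31, so that 23.8% were called. Of 24 hypoxia and glycolysis genes, 4 were higher, led by *Hk2* (0.97) and *Ldha* (0.53), and 4 lower, led by *Ndrg1* (-1.05), so that 33.3% were called. Of 20 p53 target genes, 5 were higher and 3 lower (median 0.10), and the number higher was 3 without embryo 4 of litter 1 or without either embryo of litter 2. Of 21 imprinted growth genes, 4 were higher, among them *Peg12* (0.83) and *Plagl1* (0.68), and 4 lower, with the noncoding RNA gene *Meg3* lowest (-1.01).

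Counted together, the lists set down as declining with age, embryonic globins among them, held 200 tested genes, of which 153 were called higher in litter 2 and 13 lower (median 0.73). The S phase and the G2 and M phase lists gave 95 of these 153 calls from 97 genes, and the other 103 genes gave 58 higher and 13 lower (median 0.38). The lists set down as increasing with age held 178 tested genes, of which 14 were called higher and 96 lower (median -0.34). Lists were assigned as a whole, so that single members such as *Olig1* may follow another course. A gene in lists of both kinds, such as *Lfng*, was counted in both tallies. These shares stand against 11.6% of all tested genes higher and 12.9% lower. They give the direction in which the controls of litter 2 differed, and no embryo was staged here by any measure other than RNA. The lists and the comparison were chosen with earlier results of these data known, so these shares are not an independent test.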

How the data were processed

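RNA of the lumbar spinal cord of 10 single mouse embryos at E12.5 was analysed from the authors' deposited table of raw counts per gene. The authors sequenced polyA RNA, trimmed with TrimGalore, aligned with STAR to mm10 and counted with featureCounts over GENCODE annotation in the snakePipes workflow, and the strand setting is not given in the sources used here. Groups came from the sample names. Total counts per control were between 40949585 and 61194291.

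Counts were tested with edgeR 4.0.16 in R 4.3.3 (TMM, filterByExpr, quasi-likelihood F test, package defaults, Benjamini-Hochberg over all genes tested, threshold 0.05). The SE is the size of the log2 fold change divided by the square root of F. The 5 controls, the 5 *Dot1l*-cKO embryos and the interaction over all 10 were fitted separately. Samples of a group were compared by chi-square over genes with at least 20 counts. The scripts were tested on simulated counts. Alternatives were DESeq2 1.42.0, limma-voom (limma 3.58.1), other scalings, filters and samples, a GC correction, globin genes left out and each embryo left out.

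The 36 gene lists (710 genes) and the comparison itself were chosen with earlier results of these data known. Named were fixed markers, globin genes, up to 3 genes per list and direction with the largest difference (called, mean log2 CPM of at least 1, no overlap), and the 10 largest in each direction over all genes. Other named genes are all members of short lists, the exceptions of a list, or genes described after their values were seen, and some genes that meet the rule are not reported here. Gene positions are from GENCODE M21 (GRCm38) and promoters from RefSeq.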

Additional observations from a re-analysis of the deposited data

Results flagged for a closer look

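The litter difference itself differed between controls and *Dot1l*-cKO in 2 genes by edgeR's interaction test over all 10 embryos. For *Xist* the difference was 6.46 on the log2 scale (edgeR adjusted p = 8.3e-09): both *Dot1l*-cKO embryos of litter 2 were at 6.00 and 6.80 CPM, and the other 8 embryos were at 499 CPM or more. For *Htr3a* it was -1.67 (edgeR adjusted p = 0.0227), with a lower level in litter 2 in both conditions and the larger gap in controls. Groups of 2 and 3 embryos are too small for the test of a single embryo that stands apart.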

How the results depend on the processing

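No paired analysis was possible because the embryos of the litters are different animals, so no replicate block could be fitted. An embryo number that occurs in both litters does not make a pair. Where 1 embryo of 2 was left out, the remaining embryo was assumed to vary like the other group. Without 1 embryo, 1062 to 2388 genes were higher and 1425 to 2320 lower in controls, 171 to 2439 and 177 to 2325 in *Dot1l*-cKO, and the interaction called 1 to 4 and 0 to 91; DESeq2 called 7 and 87 there. Library size alone gave 1598 higher and 3037 lower (34.5% of calls higher, against 47.4%). The beta-like globin difference was 1.32 to 1.69 and that of all globins 1.25 to 1.48.

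List medians moved as follows without 1 embryo: proneural 0.32 to 0.48, S phase 0.78 to 0.91, heterochronic 0.40 to 0.59, late temporal -0.50 to -0.37, pan-neuronal -0.27 to -0.20, neurotransmitter -0.46 to -0.33, dI1 to dI3 -0.04 to 0.28, late-born dorsal -0.31 to -0.10, ventral interneuron 0.41 to 0.66, motor neuron 0.19 to 0.37, ganglion -1.0 to -0.80, neural crest glia -0.75 to -0.61, erythroid 0.35 to 0.46, endothelial -0.60 to -0.33, microglia -0.34 to -0.12, cartilage -0.67 to -0.30, Hox 4 to 8 0.25 to 0.37, Hox 9 to 11 0.15 to 0.34, Hox 12 and 13 -1.60 to -0.50, handling -0.48 to -0.24, hypoxia -0.05 to 0.08, p53 0.08 to 0.13, imprinted -0.16 to -0.03 and Dot1l complex 0.16 to 0.27. GC correction gave ventral progenitor 0.39, proneural 0.50, synapse -0.32, dI1 to dI3 0.35, late-born dorsal 0.09, hypoxia 0.07, p53 0.14 and imprinted 0.02. Library size alone gave pan-neuronal -0.27, synapse -0.41, neurotransmitter -0.44, motor neuron 0.28, erythroid 0.39, handling -0.36 and p53 0.04. Dorsal progenitor was 0.37 by DESeq2 and 0.36 with all 10 embryos or no filter, handling -0.37 with either of these, and erythroid 0.22 with at least 10 counts. Another 327 list values under other settings and 139 without 1 embryo moved by less than the spread between embryos.

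Of the named genes, reversals occurred in genes not called: with GC correction *Tubb3* 0.08, *Dot1l* 0.05 and *Xist* -0.05; with library size alone *Xist* -0.05, *Zfhx2* -0.01 and *Mycn* -0.05; *Mycn* also with at least 10 counts (-0.01) and no filter (-0.00). Without 1 embryo *Xist* was -0.14 to 0.17, *Zfhx2* -0.12 to 0.19, *Mycn* -0.08 to 0.09 and *Hoxd12* -0.24 to 0.32. Other settings lost a call for 26 named genes and gained one for 12. Leaving out 1 embryo in turn cost more named genes their call than the other settings did. The causes were not tested.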
